A study of Mus musculus with 12 samples.

Results

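The genes for inflammatory and regulatory cytokines described here were Tnf, Il1a, Il1b, Il1rn, Il6, Il10, Il18, Tgfb1 and Osm, 9 of the 47643 genes in a table of read counts from mouse osteoclast cultures. They were chosen by gene symbol, without use of their counts, although earlier results of these data were known. All 9 were present in the table, and 7 of them passed the filter on low counts and were among the 13681 genes tested, whereas Il1a and Il6 did not pass. Their values came from 12 bulk RNA-seq. libraries in 3 groups of 4.

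For each culture, monocytes from the bone marrow (BMMs) of WT mice of the strain BALB/c were kept with M-CSF, which sustains monocytes and macrophages, and RANKL, which drives them to become osteoclasts. The control group was left unstimulated (OCsCtr). For OCsEo, eosinophils were sorted from mice of the line IL-5tg/4get, which carry an IL-5 transgene and an IL-4 reporter and are rich in eosinophils, and were added to the BMMs at a BMMs/Eos ratio of 1:2 on day 0 and stayed for 48 h. For OCsEoS, eosinophil supernatant was given instead, diluted 1:2, over the same 48 h. Stimuli were then washed away, and RNA of all 3 groups was taken on day 3. The promoter of the IL-5 transgene is not given in the sources used here. The libraries are labelled as replicates without a named animal, so that p-values measure the spread between these samples. In bulk RNA, fewer cells of a type and less RNA per cell cannot be told apart.

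Osteoclasts arise from the same precursors as macrophages, and cytokines from both cells act on their own differentiation. TNF and IL-1 signal through TRAF adaptors to NF-κB and act together with RANKL, whereas IL-10 and IL-18 are known to restrain osteoclast formation, and TGF-β is stored in bone matrix in a latent form and released upon resorption. IL-1α and IL-1β share the type 1 IL-1 receptor, which the antagonist IL-1Ra, encoded by Il1rn, occupies without signaling, while IL-6 and oncostatin M are relatives that share the receptor chain gp130.

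Library totals ranged from 27837530 to 40327869 counts, so that 3 counts, the number that a count of 0 still allows, equalled 0.0769 to 0.107 CPM, that is, counts scaled to a library of 1000000. The defining osteoclast genes Acp5, Ctsk and Mmp9 were present in every group, and the 10 osteoclast markers summed to 28400 to 34500 CPM in OCsCtr, against 18100 to 23200 in OCsEo and 14900 to 22200 in OCsEoS. Against OCsCtr, the calls were lower for 8 of the 10 in OCsEo (2.61% of all genes) and for 8 in OCsEoS (4.11%). The 10 macrophage markers summed to 5200 to 5740 CPM in OCsCtr, against 5700 to 7150 in OCsEo and 5370 to 6430 in OCsEoS. Most of this sum was Lyz2, with means of 4250, 4920 and 4770 CPM. Of the 10, 1 had a higher call in OCsEo (3.27% of all genes) and 5 in OCsEoS (3.63%). In OCsEoS 8 of the 10 had a positive log2 fold change, while Cd68 was at -0.33 (edgeR adjusted p = 0.000616) and was not called. The 10 eosinophil markers, of which 5 were tested, summed to 57.1 to 73.7 CPM in OCsCtr, against 60.1 to 82.2 in OCsEo and 49.3 to 55.5 in OCsEoS. Most of this sum was Ccr3, with means of 59.6, 48.7 and 50.7 CPM, so that it says little on the other markers. Ccr3 was at -0.29 in OCsEo on the log2 scale (edgeR adjusted p = 0.0164) and was not called. Of the 5 tested, Siglecf and Alox15 were called higher in OCsEo, where 3.27% of all genes were. Prg2 and Ear2 were at -0.01 and -0.20 in OCsEo on the log2 scale (edgeR adjusted p = 0.994 and 0.938). Alox15 was at 0.104 to 0.653 CPM in OCsCtr and at 6.24 to 16.7 in OCsEo. Prg2 was called lower in OCsEoS, where 4.11% of all genes were, and Epx, Prg3, Ear1 and Ear6 were at 0 in all 4 OCsEoS libraries. These genes at 0 were under the low-count filter and low in the other groups as well. They had at most 25 counts in an OCsCtr library (Prg3) and 29 in an OCsEo library (Ear1), so that their zeros say little. Of 10 neutrophil markers, 2 had a higher call in OCsEo (3.27% of all genes) and none in OCsEoS (3.63%). Their sum was 324 to 462 CPM in OCsCtr, against 468 to 604 in OCsEo and 372 to 432 in OCsEoS. The part of these cell types in the cytokine values below was not tested.

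Many cytokine messages carry AU-rich elements, repeats of the motif ATTTA in the 3′ untranslated region to which decay factors such as tristetraprolin bind, and these stretches are shown because they set some members apart from the others in sequence. The motif was searched on the coding strand of the GENCODE vM21 transcripts of GRCm38, overlaps included. The 30 bases with the most motifs are given 5′ to 3′ for 6 of the genes, with each ATTTA in capitals:
Tnf, chr17:35199678-35199707, minus strand: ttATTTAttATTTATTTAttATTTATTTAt
Il6, chr5:30019684-30019713, plus strand: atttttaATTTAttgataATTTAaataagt
Il1b, chr2:129364802-129364831, minus strand: cttacctATTTATTTAtgtATTTAttgatt
Osm, chr11:4240945-4240974, plus strand: ttttatATTTAtaaggcctATTTAtaatgt
Il18, chr9:50581798-50581827, plus strand: ccgaggctgcatgATTTAtagagtaaacac
Tgfb1, chr7:25705002-25705031, plus strand: cgcccggggctgtATTTAaggacacctgca

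The Tnf 3′ end held 8 ATTTA motifs in 764 bases, and 5 times the longer motif TTATTTATT. The Il6 3′ end held 6 ATTTA motifs in 427 bases, that of Il10 held 6 in 706, that of Osm 6 in 1017, that of Il1b 4 in 459 and that of Il1a 3 in 1101. Il18 and Tgfb1 held 1 motif each, in 334 and 135 bases, and Il1rn held 0 in 1864 bases. Among 11845 tested genes with an annotated 3′ end, 68.7% held at least 1 ATTTA and 7.42% held TTATTTATT, with a median of 1.30 ATTTA per kilobase. With this, 6 of the 9 cytokine genes were at or above 4 motifs per kilobase, a density that 11.3% of those genes reached, but the 7.41 per kilobase of Tgfb1 came from a single motif in a short 3′ end. The reference is that of C57BL/6J and the cultures were BALB/c, and a motif match says nothing on decay in these cells.

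The level of the 9 genes was compared per kilobase of gene length, and Tgfb1 and Il1rn stood well above the others in every library. Tgfb1 and Il1rn had a mean over the groups of 31.1 and 28.4 CPM per kilobase, with ranges over the 12 libraries of 25.8 to 35.4 and 23.9 to 31.7 that overlapped each other. Il18 followed with 3.92 (1.90 to 6.38), Il10 with 1.96, Tnf with 0.922, Osm with 0.522 and Il1b with 0.387 CPM per kilobase. Each of these 5 overlapped with its neighbor in the range over the 12 libraries, so that the order of neighbors does not go beyond that spread. The lowest Il18 library, at 1.90, still lay above the highest of Tnf, Osm and Il1b, at 1.40, 1.10 and 0.691 CPM per kilobase. Il1a and Il6 were at 0.0105 and 0.00565 CPM per kilobase, with 0 counts in 10 of the 12 libraries each. Il1rn and Tgfb1 together took 95.5% to 98.1% of all counts of the 9 genes in each library. The other 7 genes summed to 202 to 255 counts in OCsCtr, 233 to 333 in OCsEo and 330 to 373 in OCsEoS. The per kilobase value of Il18 rests on a gene length of 714 bases in the table, whose Il18 interval on chromosome 9 begins at 50575273, whereas that of GENCODE vM21 begins at 50554827.

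**Figure D1:**
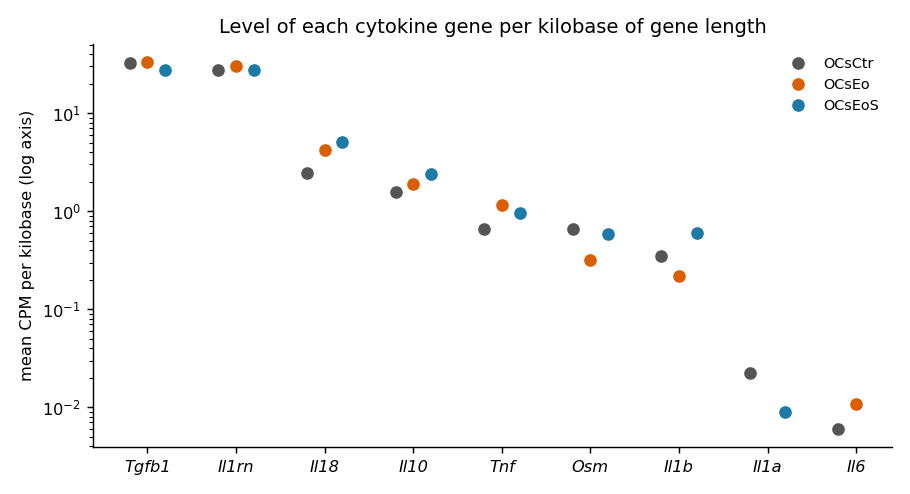
Mean level of each cytokine gene in CPM per kilobase of gene length (log axis), with 1 point per group of 4 libraries; a group with 0 counts in all libraries is not drawn, which holds for Il1a in OCsEo and Il6 in OCsEoS. Tgfb1 and Il1rn lie near 30 CPM per kilobase in every group, the next 5 genes between 0.217 and 5.06, and Il1a and Il6 below all others.

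The first comparison asks what the presence of eosinophils during the first 48 h left behind in these genes. In OCsEo against OCsCtr, 0 of the 7 cytokine genes tested was called (edgeR's quasi-likelihood test with Benjamini-Hochberg adjustment, p under 0.05, and a log2 fold change beyond 0.5 in either direction), while 5.88% of all genes tested were called. By unadjusted p under 0.05, 1 of the 7, Il18, passed, where 29.7% of all genes did, and DESeq2 also called 0, with no adjusted p for Il1b and Osm in the fit of 12 libraries. The second comparison asks the same for soluble products. In OCsEoS against OCsCtr, 1 of the 7 was called, Il18, which is 14.3% of them, against 7.73% of all genes. In OCsEoS against OCsEo, 0 of the 7 was called by edgeR and by DESeq2, against 0.38% of all genes (0.0731% higher, 0.307% lower and 0.592% by adjusted p alone), and 1, Tgfb1, had an unadjusted p under 0.05, against 11.1% of all genes. Both comparisons with OCsCtr use the same 4 control libraries. The median log2 fold change of the 7 genes was 0.14 in OCsEo and 0.56 in OCsEoS, where that of all genes was -0.01 in each. The median in OCsEoS is the value of Tnf, a gene of low counts with a 95% interval of -0.48 to 1.59. It was thus not read as a shift of the 7 genes. A single call among 7 genes lies near the background and is not a result about these genes as a group.

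**Figure D2:**
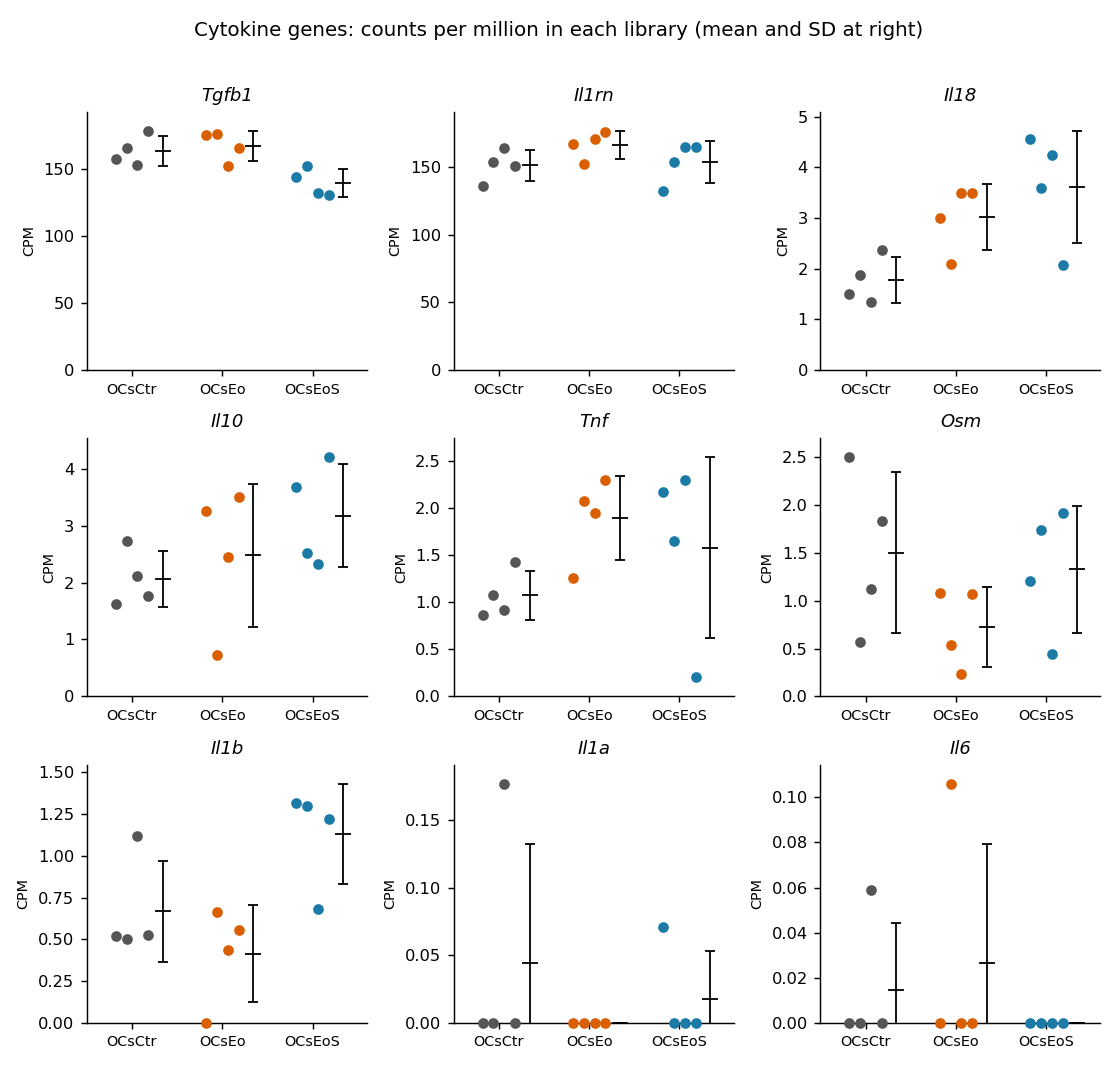
CPM (counts scaled to library size) of each cytokine gene in each of the 12 libraries, 1 point per library, in order of replicate number within a group, with the mean and SD of 4 at the right of each group (lower ends below 0 are cut off at the axis). Il18 runs from 1.35 to 2.36 CPM in OCsCtr and from 2.07 to 4.56 in OCsEoS, while Il1rn and Tgfb1 stay between 130 and 178 CPM throughout.

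**Figure D3:**
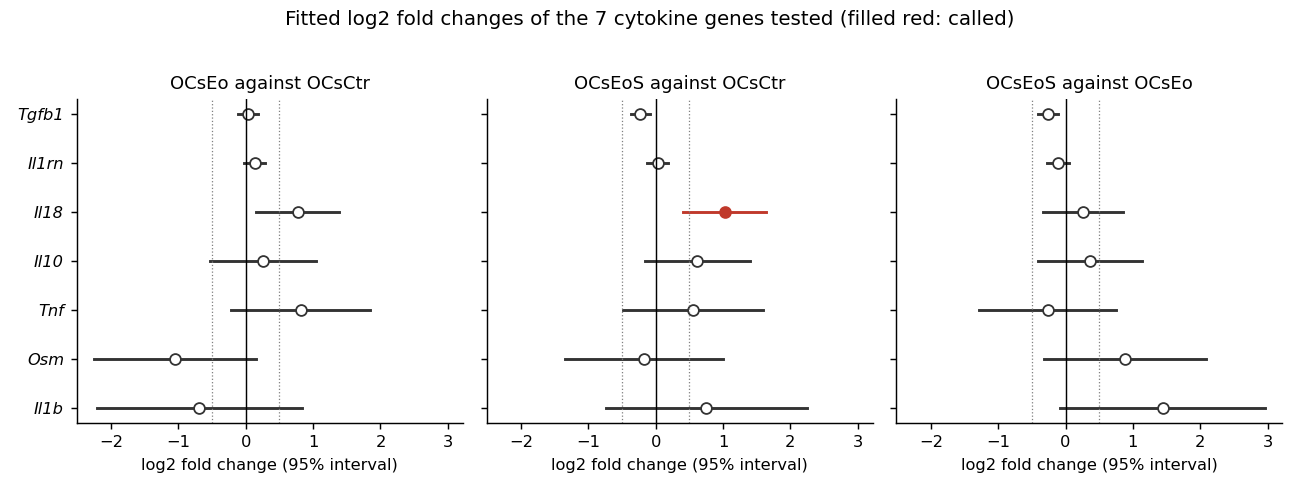
Log2 fold changes of the 7 cytokine genes tested, with 95% intervals, in the 3 comparisons; dotted lines mark 0.5 in each direction, and the filled red point is the gene called. Only Il18 in OCsEoS against OCsCtr is called, at 1.03, and the intervals of Il1b and Osm are the widest.

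Il18 encodes a cytokine of the IL-1 family that is made as an inactive precursor and cut by caspase-1 in the inflammasome. Its level was 1.49, 1.87, 1.35 and 2.36 CPM in OCsCtr 1 to 4, from 43 to 76 counts. In OCsEo it was 2.99, 2.10, 3.49 and 3.50 CPM, from 79 to 136 counts. In OCsEoS it was 4.56, 3.59, 4.24 and 2.07 CPM, from 71 to 143 counts. Thus OCsEoS 4 lay within the OCsCtr range, while the other 3 OCsEoS libraries lay above every OCsCtr library, and in OCsEo only OCsEo 2 lay within it. Il18 rose in OCsEoS by 1.03 on the log2 scale (SE 0.29, 95% interval 0.41 to 1.64, edgeR adjusted p = 0.0154), a 2.04-fold difference. The call rests on few libraries, as the adjusted p was 0.0514 without OCsCtr 3 and 0.0512 without OCsEoS 1, with log2 fold changes of 0.92 and 0.91. In OCsEo the log2 fold change was 0.77 (SE 0.29, interval 0.15 to 1.38, edgeR adjusted p = 0.0807), and it passed without OCsEo 2 (adjusted p = 0.0448) or without OCsEoS 4 (adjusted p = 0.0464), the latter only sharing in the estimate of the spread. OCsEoS and OCsEo differed by 0.26 (interval -0.34 to 0.86, edgeR adjusted p = 0.785), so that a difference between both stimuli was not shown, and the interval still holds values past 0.5.

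The genes whose log2 CPM followed that of Il18 most closely over the 12 libraries were Gm4737 (Pearson r = 0.927), Rps27 (r = 0.920), which encodes a ribosomal protein, and Arl4c (r = 0.909), a small GTPase gene. Rps27 averaged 666 CPM in OCsCtr, against 823 in OCsEo and 891 in OCsEoS, and Arl4c 28.1, 32.2 and 38.1 CPM. These 12 points share their group differences, so that the values only describe which genes run alongside.

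Among the ligands of the type 1 IL-1 receptor, transcripts of the antagonist Il1rn were abundant and those of the agonists Il1a and Il1b were rare. Il1rn was at 136, 154, 164 and 151 CPM in OCsCtr 1 to 4. In OCsEo it was at 167, 152, 171 and 176 CPM, and in OCsEoS at 132, 154, 165 and 165 CPM. All 3 groups overlapped. The log2 fold change was 0.14 in OCsEo (SE 0.08, interval -0.02 to 0.29, edgeR adjusted p = 0.251) and 0.03 in OCsEoS (SE 0.08, interval -0.13 to 0.18, edgeR adjusted p = 0.859). Both intervals stay inside 0.5 in either direction, with 3712 to 6676 counts per library behind them.

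Il1b, the inflammasome-dependent secreted agonist, gave 15, 17, 38 and 17 counts in OCsCtr, 0, 25, 17 and 16 in OCsEo, and 37, 45, 23 and 42 in OCsEoS. These correspond to 0.668 ± 0.301 CPM (SD, n = 4) in OCsCtr, against 0.414 ± 0.291 in OCsEo and 1.13 ± 0.302 in OCsEoS. OCsCtr 3 stood above the other controls, OCsEo 1 had no count, and OCsEoS 3 lay below the rest of its group. Neither OCsEo (log2 fold change -0.69, SE 0.73, edgeR adjusted p = 0.591) nor OCsEoS (0.75, SE 0.71, edgeR adjusted p = 0.506) passed the test against OCsCtr. The 4 OCsEoS libraries lay above all 4 OCsEo libraries, as in 5.47% of all genes in either direction, but the difference of 1.44 had an interval of -0.08 to 2.96 and an edgeR adjusted p of 0.479. Per kilobase, Il1rn exceeded Il1b by 50.6 to 105 times in OCsCtr, by 78.6 to 135 times in the 3 OCsEo libraries with an Il1b count, and by 34.6 to 83.2 times in OCsEoS. Il1a, which encodes the cell-associated agonist, had 6 counts in OCsCtr 3, 2 counts in OCsEoS 1 and 0 in the other 10 libraries. Il1a overlaps Gm14023 and Il1b overlaps Il1bos on the opposite strand, and the strand setting of the counting is not stated. Il1bos had 0 counts in all libraries, whereas Gm14023 had 135 in total, more than the 8 of Il1a.

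Tnf encodes the cytokine that acts on osteoclast precursors through TNFR1 and TNFR2. It was at 0.867, 1.07, 0.913 and 1.43 CPM in OCsCtr. In OCsEo it was at 1.26, 2.07, 1.95 and 2.29 CPM, and in OCsEoS at 2.17, 1.65, 2.29 and 0.204 CPM. Of each stimulated group, 3 libraries were thus above all controls, while OCsEo 1 lay within the control range and OCsEoS 4, with 7 counts, below it. The log2 fold change was 0.82 in OCsEo (SE 0.50, interval -0.22 to 1.85, edgeR adjusted p = 0.294) and 0.56 in OCsEoS (SE 0.50, interval -0.48 to 1.59, edgeR adjusted p = 0.480), and neither passed. Without OCsEoS 4 the value of OCsEoS was 0.93, with an edgeR adjusted p of 0.0848, and its difference from OCsEo turned from -0.26 to 0.11.

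Il10, encoding the main anti-inflammatory cytokine of macrophages, was at 1.63, 2.73, 2.12 and 1.77 CPM in OCsCtr. In OCsEo it was at 3.26, 0.718, 2.44 and 3.50 CPM, and in OCsEoS at 3.67, 2.52, 2.32 and 4.20 CPM. OCsEo 2, with 27 counts against 95 to 109 in the rest of its group, was the lowest of the 12 libraries, and OCsEoS 4, the library lowest in Tnf, was the highest. The log2 fold change was 0.26 in OCsEo (SE 0.38, edgeR adjusted p = 0.715) and 0.62 in OCsEoS (SE 0.37, interval -0.16 to 1.40, edgeR adjusted p = 0.264). Neither passed, and without OCsEo 2 the value of OCsEo was 0.56 (edgeR adjusted p = 0.220).

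Tgfb1 encodes TGF-β1, which had the highest mean over the groups per kilobase, whereas in OCsEoS its mean of 27.7 CPM per kilobase lay beside the 27.8 of Il1rn. It was at 157, 165, 153 and 178 CPM in OCsCtr. In OCsEo it was at 175, 176, 152 and 165 CPM, and in OCsEoS at 144, 152, 132 and 130 CPM. All OCsEoS libraries were below all OCsCtr libraries, as in 25.7% of all genes in either direction, while OCsEo and OCsCtr overlapped. The difference between OCsEoS and OCsCtr was -0.23 (SE 0.07, interval -0.37 to -0.08, edgeR adjusted p = 0.0230), a level 0.854 times that of OCsCtr. It passed the adjusted p, as 23.0% of all genes did, but its size was below the threshold of 0.5, so that Tgfb1 was not called. The adjusted p was above 0.05 without OCsCtr 2, OCsCtr 4, OCsEoS 3 or OCsEoS 4 (0.0611, 0.0913, 0.0815 and 0.0817). In OCsEo the log2 fold change was 0.03 (interval -0.11 to 0.18, edgeR adjusted p = 0.812), and OCsEoS differed from OCsEo by -0.26 (interval -0.41 to -0.11, edgeR adjusted p = 0.116).

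Osm encodes oncostatin M, a macrophage product that acts on osteoblasts. It gave 72, 19, 38 and 59 counts in OCsCtr, 36, 20, 9 and 31 in OCsEo, and 34, 60, 15 and 66 in OCsEoS. The means were 1.5 ± 0.842 CPM (SD, n = 4) in OCsCtr, against 0.728 ± 0.419 in OCsEo and 1.33 ± 0.662 in OCsEoS. The groups overlapped widely, since libraries within each group varied by more than 3 times. Neither OCsEo (log2 fold change -1.05, SE 0.57, interval -2.25 to 0.15, edgeR adjusted p = 0.236) nor OCsEoS (-0.17, SE 0.56, edgeR adjusted p = 0.872) passed. Il6 had 2 counts in OCsCtr 3, 4 counts in OCsEo 2 and 0 in the other 10 libraries. For Il1a and Il6, the exact permutation test of the mean CPM (two-sided, 4 against 4) gave p = 1.0 in all 6 tests. With at most 1 library above 0 in each group, every split gives a difference at least as large as the one seen. The test therefore says nothing on a difference. By their counts alone, Il1a and Il6 were at the limit of detection at this depth, and a difference was not detectable.

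The spread between replicates holds both differences between cultures and counting error. For Osm in OCsCtr the coefficient of variation was 56.0%, where counting alone gives 14.6%. For Tnf it was 23.9% against 17.0% in OCsCtr, and the 60.6% against 14.1% in OCsEoS comes with OCsEoS 4, at 0.204 CPM, far below the other 3 libraries. For Il1rn in OCsCtr it was 7.58% against 1.43%, and for Tgfb1 6.83% against 1.38%. The low-level cytokines had 95% intervals up to 3.04 wide on the log2 scale, and those of Il1rn and Tgfb1 were 0.29 wide at the narrowest, so that a result short of the threshold for Tnf, Osm, Il1b or Il10 leaves room for changes of a size that was called elsewhere.

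Receptors, processing factors, feedback inhibitors, signal transducers and further cytokines of these pathways made up 5 lists of 115 genes, of which 92 were tested. In OCsEo, 5 were called higher and 3 lower (8.70%), and in OCsEoS 2 higher and 4 lower (6.52%), against 5.88% and 7.73% of all genes. The median log2 fold change was -0.06 in OCsEo and -0.14 in OCsEoS for the receptors, -0.10 and -0.08 for the processing factors, -0.05 and -0.03 for the feedback inhibitors and targets, and -0.05 and -0.14 for the signal transducers. Of the other cytokines it was 0.35 and 0.10, and of all genes -0.01 in each group.

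**Figure D4:**
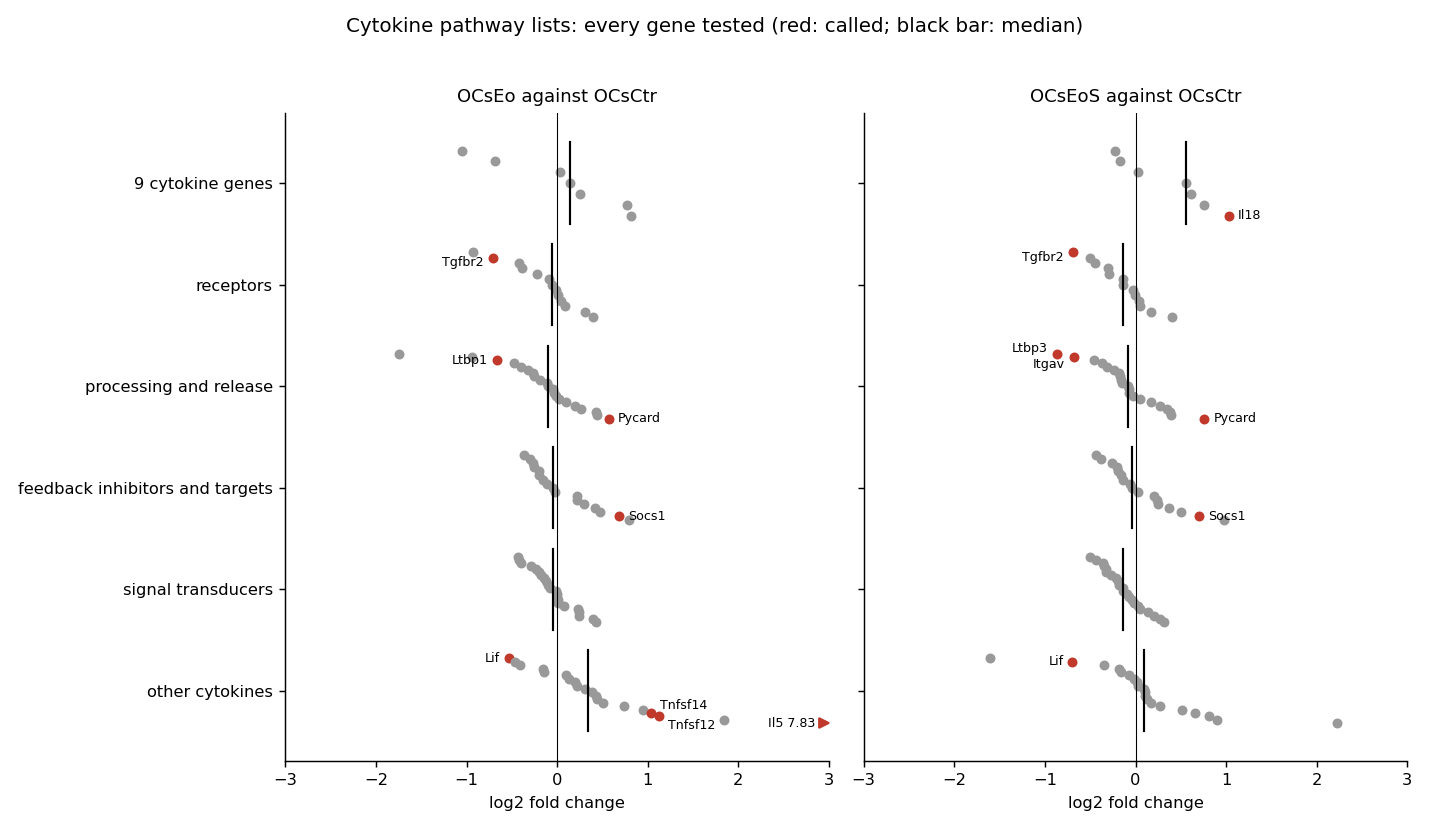
Log2 fold changes of every gene tested in the list of cytokines and in 5 pathway lists, in OCsEo and OCsEoS against OCsCtr; red points are genes called, black bars are list medians, and the arrowhead stands for Il5, whose fitted value of 7.83 lies off the axis. Tgfbr2 is the only receptor called, at -0.71 and -0.69, and no signal transducer is called.

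Of the 16 receptor genes 13 were tested, and Tgfbr2 alone was called, lower in OCsEo and OCsEoS, where 2.61% and 4.11% of all genes were. Tgfbr2 encodes the ligand-binding TGF-β receptor chain. Its level was 394 to 415 CPM in the 4 OCsCtr libraries, 224 to 260 in OCsEo and 204 to 278 in OCsEoS. Neither stimulated group overlapped with OCsCtr, as in 21.5% of all genes in OCsEo and 25.7% in OCsEoS, in either direction. Tgfbr2 fell by 0.71 in OCsEo (SE 0.08, edgeR adjusted p = 3.01e-06) and by 0.69 in OCsEoS (SE 0.08, edgeR adjusted p = 5.58e-06) on the log2 scale. Its partner Tgfbr1, the signaling chain, was at 421, 321 and 343 CPM in OCsCtr, OCsEo and OCsEoS, and differed by -0.39 and -0.29, past the adjusted p (0.000979 and 0.00598, edgeR) but short of 0.5. The TNF receptor genes Tnfrsf1a and Tnfrsf1b were at 148 and 46.7 CPM in OCsCtr, with log2 fold changes between -0.14 and 0.04, none past the test.

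The other receptors gave no call either. Il1r1, the receptor on which IL-1Ra acts, was at 0.885 CPM in OCsCtr, its coreceptor gene Il1rap at 8.57 and the decoy receptor gene Il1r2 at 5.47. Il1rap in OCsEoS was at 11.3 CPM (log2 fold change 0.40, edgeR adjusted p = 0.0691) and Il1r2 at 4.01 CPM (-0.45, edgeR adjusted p = 0.225). For the gene that was called among the cytokines, Il18, the receptor gene Il18r1 had 0 counts in all 12 libraries and Il18rap was at 1.43 CPM in OCsCtr. Il10ra and Il10rb were at 9.87 and 80.3 CPM in OCsCtr, Il6ra at 13.3 and Il6st, encoding gp130, at 33.0. Osmr, the oncostatin M receptor gene, averaged 0.0756 to 0.160 CPM and was not tested.

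Among the processing and release factors, Pycard, which encodes the inflammasome adaptor ASC, was called higher in both groups. It was at 28 to 30.3 CPM in OCsCtr, against 38.0 to 46.8 in OCsEo and 46.3 to 50.8 in OCsEoS. Neither stimulated group overlapped with OCsCtr, as in 21.5% of all genes in OCsEo and 25.7% in OCsEoS, in either direction. Pycard rose by 0.57 in OCsEo (SE 0.08, edgeR adjusted p = 0.000117) and by 0.76 in OCsEoS (SE 0.08, edgeR adjusted p = 6.58e-06). Other inflammasome genes of the list were not called in either group. Their log2 fold changes in OCsEo and OCsEoS were 0.09 and -0.08 for Casp1, -0.25 and -0.16 for Casp4, and 0.44 and 0.35 for Nlrp3. For Nlrc4 they were -0.05 and -0.46, for Aim2 -0.02 and -0.07, and for Gsdmd 0.02 and 0.05. Of the 21 genes of this list that were tested, 1 was called lower in OCsEo, Ltbp1, and 2 in OCsEoS, Ltbp3 and Itgav, where 2.61% and 4.11% of all genes were. Ltbp3, for a latent TGF-β binding protein, fell in OCsEoS by 0.87 (13.4 to 14.9 CPM in OCsCtr, 6.74 to 8.89 in OCsEoS, edgeR adjusted p = 0.000331). Its relative Ltbp1 fell in OCsEo by 0.66 (6.41 to 8.35 CPM in OCsCtr, 2.69 to 5.65 in OCsEo, edgeR adjusted p = 0.0273), a call that was lost without OCsCtr 1 or 3 or OCsEo 3 (adjusted p 0.0830, 0.0535 and 0.0768) and after removal of the trend with gene length (0.0525). Itgav, for the integrin chain αV that pulls TGF-β free of its latency peptide and also pairs with the osteoclast integrin β3, fell in OCsEoS by 0.68 (663 to 769 CPM in OCsCtr, 354 to 577 in OCsEoS, edgeR adjusted p = 0.000325), and was at -0.48 in OCsEo (edgeR adjusted p = 0.00727), just short of 0.5. Nrros, whose product holds latent TGF-β on macrophages, went the other way, with 144 CPM in OCsCtr against 173 and 175 in the stimulated groups (differences of 0.26 and 0.27, edgeR adjusted p = 0.00952 and 0.0047), past the adjusted p but below 0.5. OCsEoS and OCsEo did not differ past the test in Ltbp1, Ltbp3 or Itgav (edgeR adjusted p = 0.362, 0.209 and 0.548).

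Of 17 feedback inhibitors and target genes tested, Socs1 alone was called, higher in both groups, where 3.27% and 3.63% of all genes were. Of the 22 signal transducers 0 was called, against 5.88% and 7.73% of all genes in either direction. Calls this few lie near the background and are not results about these lists. Socs1, a brake on JAK-STAT signaling, was at 2.83 CPM in OCsCtr, against 4.56 in OCsEo and 4.62 in OCsEoS, and rose by 0.69 and 0.71 (SE 0.23 each, edgeR adjusted p = 0.0429 and 0.0305). OCsEoS 3, at 2.88 CPM, lay within the control range of 2.53 to 3.33. The call was lost in OCsEo without any single one of 7 libraries and in OCsEoS without any single one of 4. It was also lost with the gene length trend taken out, at an adjusted p of 0.0868 in OCsEo and 0.0796 in OCsEoS, and in OCsEo without a filter on low counts (0.0643). Irak2 and Tab2, which relay IL-1 receptor signals, had the lowest values among the transducers in OCsEoS, at -0.50 and -0.44 (edgeR adjusted p = 0.000430 and 0.000795), past the adjusted p but not the threshold of size. Of the 22 transducers, 6 had a positive log2 fold change in OCsEoS. Among these, Tradd and Myd88 were at 0.27 and 0.20 (edgeR adjusted p = 0.0188 and 0.0334), also short of the threshold of size.

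**Figure D5:**
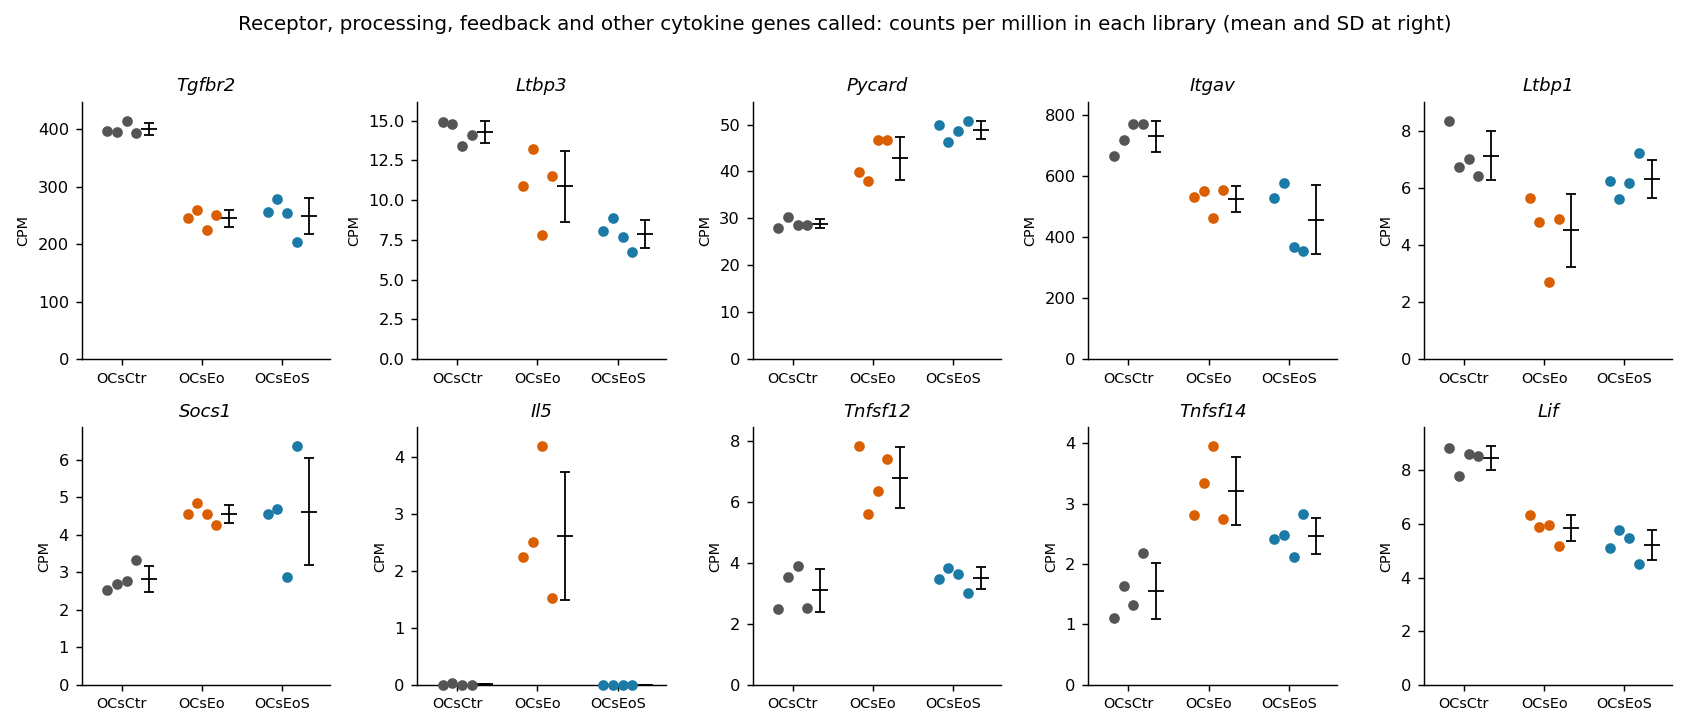
CPM in each of the 12 libraries for the 10 pathway genes called in OCsEo or OCsEoS against OCsCtr, 1 point per library with the mean and SD of 4 at the right of each group. Tgfbr2 lies at 394 to 415 CPM in OCsCtr and at or below 278 in all stimulated libraries, and Il5 is above 1.5 CPM in OCsEo alone.

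Of the 38 other cytokine genes, 20 were tested. In OCsEo 3 were called higher and 1 lower (3.27% and 2.61% of all genes), and in OCsEoS 0 higher and 1 lower (3.63% and 4.11%). Lif, for a gp130 cytokine related to oncostatin M, was called lower in both groups, from 7.80 to 8.84 CPM in OCsCtr to 5.16 to 6.34 in OCsEo (log2 fold change -0.53, edgeR adjusted p = 0.0179) and 4.49 to 5.76 in OCsEoS (-0.70, edgeR adjusted p = 0.00221), and the call in OCsEo was lost without OCsEo 4 and without a filter on low counts (adjusted p = 0.0533 in each). The TNF family genes Tnfsf12, encoding TWEAK, and Tnfsf14, encoding LIGHT, were called higher in OCsEo, by 1.13 and 1.04 on the log2 scale (edgeR adjusted p = 0.000833 and 0.0132). In OCsEoS, Tnfsf14 was at 0.65 (edgeR adjusted p = 0.103) and was not called. A difference of Tnfsf14 between OCsEoS and OCsEo was not shown (-0.38, edgeR adjusted p = 0.641). Tnfsf12 was at 5.61 to 7.83 CPM in OCsEo and at 2.50 to 3.89 in OCsCtr and 3.03 to 3.85 in OCsEoS. It was the only one of these with a called difference between OCsEoS and OCsEo that did not rest on counts of 0, at -0.95 (edgeR adjusted p = 0.0362), and this call was lost without any single one of the 8 libraries of both groups except OCsEoS 2. Il5, the eosinophil growth factor gene, had 44 to 163 counts in the OCsEo libraries, 1 count in the 4 OCsCtr libraries together and 0 in all OCsEoS libraries. The eosinophil marker Siglecf was at 2.94 ± 0.317 CPM (SD, n = 4) in OCsEo. It was at 0.428 ± 0.199 CPM in OCsCtr and 0.827 ± 0.454 in OCsEoS. The marker Prg2 was at 5.49 CPM in OCsEo and 5.53 in OCsCtr. The part of eosinophils in the other OCsEo values was not tested.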

How the data were processed

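RNA of 12 day 3 osteoclast cultures was sequenced in 3 groups of 4 libraries, and groups were taken from the sample labels. The authors aligned cleaned paired-end reads to GRCm38/mm10 and counted reads per gene with featureCounts, and raw counts were deposited without normalization (fastp and HISAT2 2.0.5 per the submitters' processing notes). Of 47643 genes, 27440 had 0 counts in every library. Total counts were 27837530 to 40327869, and intervals cover counting error and the spread between these libraries.

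Counts were analysed in R 4.3.3 with edgeR 4.0.16. filterByExpr (minimum count 10) left 13681 genes, TMM factors scaled the libraries, and 1 quasi-likelihood fit of all 12 libraries gave each contrast. Adjusted p-values are those of edgeR, Benjamini-Hochberg over all genes tested, and a gene was called under 0.05 with an absolute log2 fold change over 0.5. Il1a and Il6, under the filter, were compared by an exact permutation test. DESeq2 1.42.0 served as an alternative, as did other scalings, filters, thresholds, 2-group fits, a replicate block, removal of gene length trends and each library left out in turn. No pair of replicates agreed within sampling noise. The methods were tested on simulated counts, where a first overall criterion of recovery was replaced, after its outcome was seen, by criteria per expression level, since genes of low counts are recovered less often.

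The cytokine genes, the pathway and marker lists and the tests were chosen with earlier results of these data known. Named are all 9 cytokine genes, the receptors of the cytokines described, up to 5 genes per pathway list called in OCsEo or OCsEoS against OCsCtr, and the 3 genes with the highest correlation to a called cytokine gene. Furin and other pathway genes below the size threshold were left to the counts, and Nrros, Irak2, Tab2, Tradd, Myd88, Siglecf, Alox15 and the other markers were named after their values were seen. The AU-rich elements were added after the levels were seen, with 1 principal transcript per gene of GENCODE vM21 (best support, then longest). That order was revised after a first set of motif counts had been seen, which lowered the count for Il6, and the printed windows were then centred anew. Other experiments of the study were not analysed here.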

Additional observations from a re-analysis of the deposited data

Results flagged for a closer look

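In groups of 4, a library was listed where its gap to the nearest other, as a share of the range of the group, exceeded Dixon's 95% critical value. This held for 8 of 54 pairs of gene and group, but in 5 of the 8 a single library had counts and the other 3 were at 0, which fixes the listing. Chance gives about 1 in 20 where no values are tied, so that the number of 8 was not set against it. For Il1a, OCsCtr 3 had 0.177 CPM and OCsEoS 1 had 0.0712 CPM, from 6 and 2 counts, with 0 in the rest of each group. For Il6, OCsCtr 3 had 0.0589 CPM and OCsEo 2 had 0.106 CPM, from 2 and 4 counts, with 0 in the rest. For Il1b, OCsCtr 3 had 1.12 CPM against 0.504 to 0.529 in the other controls, and OCsEoS 3 had 0.683 CPM against 1.22 to 1.32. OCsCtr 3 was also the highest control in Tgfbr2, at 415 CPM against 394 to 397, so that it accounts for 4 of the 8. In Il5, OCsCtr 2 had 0.0297 CPM from 1 count, with 0 in the other controls.

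Among the genes of the pathway and marker lists, 7 had an adjusted p under 0.05 in the edgeR test of OCsEoS against OCsEo. Il5 had a fitted log2 difference of -9.44 (edgeR adjusted p = 0.00013), a value that depends on the prior count since all OCsEoS libraries were at 0, and Tnfsf12 one of -0.95 (edgeR adjusted p = 0.0362). The eosinophil markers Alox15 and Prg2 differed by -4.03 and -2.73 (edgeR adjusted p = 6.26e-05 and 0.0261). The neutrophil markers Ngp and Ltf differed by -0.62 and -0.84 (edgeR adjusted p = 0.0148 and 0.043), and the macrophage marker Cd68 by -0.30 (edgeR adjusted p = 0.0271), which is below the size of 0.5.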

How the results depend on the processing

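Of the alternative values for the 7 cytokine genes tested, 458 kept their direction and their side of the threshold, 6 turned direction, 3 newly passed and 2 no longer passed, leaving out those for which DESeq2 gave no adjusted p. Il1a and Il6 each turned direction once more. Across the scalings, filters, DESeq2 and 2-group fits, the cytokine genes called were 0 in OCsEo, Il18 in OCsEoS, and 0 in OCsEoS against OCsEo. Without a fold change threshold, 2 were called in OCsEoS, Il18 and Tgfb1. With 1 library left out, the number called was 0 to 1 in OCsEo (1, Il18, without OCsEo 2 or OCsEoS 4) and 0 to 1 in OCsEoS (0 without OCsCtr 3 or OCsEoS 1). The log2 fold changes in OCsEoS ranged from -0.03 to 0.10 for Il1rn and from -0.44 to 0.17 for Osm, and from -0.50 to 0.11 for Tnf against OCsEo. For Il1a and Il6 the differences in CPM reached 0.0178 (Il1a, OCsEoS, without OCsCtr 3) and -0.0147 (Il6, OCsEo, without OCsEo 2), both opposite to the -0.0264 and 0.0119 with all libraries, and with 1 library left out they ran from -0.0442 to 0.0178 and from -0.0147 to 0.0266. For Tgfb1, the gene length correction gave an adjusted p of 0.0535 in OCsEoS, and for OCsEoS against OCsEo it was 0.0354 without a filter and 0.0251 with DESeq2. In OCsEoS against OCsEo, Socs1 was -0.02 with the replicate block and -0.01 with the length correction, and with 1 library left out it ran from -0.18 to 0.19, and Tgfbr2 from -0.04 to 0.10. The genes called in all were 804, 1058 and 52. They were 2382, 3151 and 81 without a fold change threshold and 136, 160 and 21 over 1, and for OCsEoS against OCsEo 100 without a filter, 94 with DESeq2 and 17 at the lowest with 1 library left out. The cause of these shifts was not tested.

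Replicate numbers were shared by the groups, and the main fit left them out. Libraries of the same number deviated together with a correlation of -0.044 to 0.094, against -0.115 to 0.123 for different numbers. Of 24 pairs of library and other group, 17 correlated best with their own number, more often than unrelated numbers would give on average. The 24 share libraries, and neither this excess nor whether the numbers mark matched cultures was tested. The replicate block gave 854, 1108 and 67 genes called, against 804, 1058 and 52 in the main fit. It gave the same calls among the cytokine genes, namely 0, Il18 (adjusted p = 0.0248) and 0. Depth limits Il1a and Il6, with at most 6 counts in a library.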
